A study of Homo sapiens with 12 samples.

Results

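RNA bound by the catalytically dead Cas9 of Streptococcus pyogenes (dSpCas9) was mapped by eCLIP with a V5 tag and with a 3xFLAG tag, and the loci described here were those listed over size-matched input with 1 of these tags and not with the other. Peaks of the 4 deposited lists were pooled, and peaks within 10 nt of each other on the same strand were merged into 8501 loci. Of these, 2689 held a V5 peak over input and no FLAG peak (V5-only loci), and 2558 held a FLAG peak over input and no V5 peak (FLAG-only loci). An input peak of V5 was held by 63.3% of all loci and an input peak of FLAG by 61.8%. The 5247 members were thus chosen by the lists themselves, and their number is a description. A further 2693 loci held an input peak of both tags, and 561 held a peak over empty vector with no input peak.

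HEK 293T cells, an established human embryonic kidney line, were transiently transfected with plasmids for V5-dSpCas9 or 3xFLAG-dSpCas9, neither of which carried a nuclear localization signal, or with the empty plasmid pCDNA3.1(-), and were crosslinked with 2 exposures to UV of 400 mJ/cm2. No guide RNA is named in the labels. The 12 libraries formed 6 groups of 2: the V5 immunoprecipitation (IP) from V5-dSpCas9 cells, its size-matched input, the V5 IP from empty vector cells, and the same 3 groups for FLAG. RNA on the membrane from 115 kDa upwards was taken in each. Each list gives 1 enrichment per peak over both replicates, so no spread between replicates can be given, and the depth of the libraries is not known from these files. All intervals below are 95% intervals that cover counting of loci only, and loci of 1 gene are not independent of each other.

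In eCLIP, ultraviolet light joins a protein to the RNA it touches, the protein is pulled down through an antibody, and the RNA fragments left on it are sequenced. A size-matched input, cut from the same gel range without the pull-down, gives the background of abundant RNA, while the same antibody used on cells without the tagged protein gives the background of the antibody. Cas9 normally holds a guide RNA made of a repeat-derived stem-loop part and a spacer. Cellular RNAs bound in its absence have no designed sequence.

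The sequences of the most enriched loci are shown first, since they are the RNA that the rest of the values describe. Each is the strand of the transcript in hg38, whole or, in untranslated regions and longer loci, its central 30 bases. Capitals mark a GU-loop:5nt-stem, the sequence and structure that the study modelled for its shared peaks. It is a GU (written GT) whose U has a predicted pairing probability under 0.7, followed by 5 bases each over 0.5. The 5 V5-only loci with the highest enrichment lay in RPL15 (a protein of the large ribosomal subunit), CABLES1 (a cyclin-dependent kinase substrate linker), RRBP1 (the ribosome-binding protein of the endoplasmic reticulum), PITX1 (a homeobox transcription factor) and the noncoding gene LINC01344. The sequences of the first 4 follow.
RPL15, V5-only, coding, chr3:23918440-23918469, plus strand: gttacGTTATATataggattcGTGTTCGCC
CABLES1, V5-only, 3′ UTR, chr18:23258215-23258244, plus strand: tcgcactttctccactGTGGAGAtggctgg
RRBP1, V5-only, coding, chr20:17621458-17621507, minus strand: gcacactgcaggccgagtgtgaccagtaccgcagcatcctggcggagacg
PITX1, V5-only, 3′ UTR, chr5:135027884-135027913, minus strand: gtcgagccggcagagcaaggggcgcggccc

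The 5 FLAG-only loci with the highest enrichment lay in SIN3B (a scaffold of histone deacetylase complexes), MED27 (a Mediator subunit), ARAP1 (a GTPase-activating protein), the ribosomal protein pseudogene RPS28P7 and FAR2 (a fatty acyl-CoA reductase).
SIN3B, FLAG-only, intron, chr19:16849646-16849666, plus strand: tgaactGTTGGGGaagatctg
MED27, FLAG-only, 3′ UTR, chr9:131860259-131860288, minus strand: gctgtgcagcatgctcctcgtccatgtgtg
ARAP1, FLAG-only, exon outside the canonical transcript, chr11:72703395-72703415, minus strand: cccccccggctcctccacaag
RPS28P7, FLAG-only, pseudogene, chr11:82689587-82689649, plus strand: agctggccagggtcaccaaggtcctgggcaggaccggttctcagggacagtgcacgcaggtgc
FAR2, FLAG-only, exon outside the canonical transcript, chr12:29171713-29171742, plus strand: acctcggactgactgcccaccatccaggaa

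Coding-sequence loci from genes that held many members are shown for comparison, the most enriched one of at most 120 nt per gene. HSPA8 encodes the constitutive cytosolic heat shock cognate chaperone, RPL4 a large subunit ribosomal protein, SESN2 and SESN1 stress-induced sestrins that restrain mTORC1, NSD1 a histone H3 lysine methyltransferase and INPP5D an inositol phosphatase.
RPL4, V5-only, chr15:66503456-66503529, minus strand: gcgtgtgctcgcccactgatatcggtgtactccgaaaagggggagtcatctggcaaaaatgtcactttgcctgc
HSPA8, V5-only, chr11:123060695-123060758, minus strand: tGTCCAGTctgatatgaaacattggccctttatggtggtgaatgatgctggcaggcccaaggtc
SESN2, V5-only, chr1:28269216-28269247, plus strand: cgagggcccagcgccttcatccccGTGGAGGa
SESN1, FLAG-only, chr6:108988543-108988620, minus strand: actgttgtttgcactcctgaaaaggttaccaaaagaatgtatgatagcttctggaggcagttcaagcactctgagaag
NSD1, FLAG-only, chr5:177257047-177257101, plus strand: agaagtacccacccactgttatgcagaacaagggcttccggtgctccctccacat
INPP5D, FLAG-only, chr2:233177265-233177346, plus strand: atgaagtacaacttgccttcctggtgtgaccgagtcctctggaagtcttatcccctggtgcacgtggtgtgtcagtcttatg

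The enrichment that chose the members is given as a description only. The median log2 enrichment over input of a V5-only locus in V5, taking its highest peak, was 3.43 (quartiles 3.19 and 3.78, n = 2689), and that of a FLAG-only locus in FLAG was 3.48 (quartiles 3.22 and 3.86, n = 2558). Loci with both tags had medians of 3.82 in V5 and 3.76 in FLAG. Most members thus lay in the lowest part of the lists, which begin at a log2 of 3: 56.2% of V5-only loci and 51.8% of FLAG-only loci were under 3.5, against 29.1% and 33.7% of the loci with both tags. The median −log10 p was 6.05 for V5-only and 5.97 for FLAG-only loci, and 10.6 in V5 and 13.6 in FLAG for loci with both tags. Many members had exactly the same log2 value as another locus of their group, 65.7% of V5-only and 70.2% of FLAG-only loci, compared with 44.1% (V5) and 36.8% (FLAG) of the loci with both tags.

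Members were also shorter. The median length was 80 nt for V5-only loci (quartiles 56 and 107) and 75 nt for FLAG-only loci (quartiles 51 and 102), whereas loci with both tags had a median of 115 nt. Length depends on the merging rule, since a locus with both tags joins a peak of each tag. By contrast, 77.4% of V5-only and 78.2% of FLAG-only loci were a single peak. The median peak length was 74 nt in the V5 and 71 nt in the FLAG input list. At the edge of the rule, the lowest V5-only enrichment was a log2 of 3.00 in LDHB (a lactate dehydrogenase subunit) and the lowest FLAG-only enrichment a log2 of 3.00 in TOMM34 (a cochaperone of mitochondrial import). The smallest gap that still separated the tags was 11 nt, found at 2 V5-only and 4 FLAG-only loci. An example is the 3′ UTR of JAM3 (a junctional adhesion molecule), where a V5-only locus of log2 3.17 at chr11:134151227-134151316 and a FLAG-only locus of log2 3.08 at chr11:134151328-134151413 lay side by side. Just outside the rule, 18 loci with both tags had no touching peaks of the tags and were joined across gaps of up to 10 nt or through empty vector peaks, so that their nearest V5 and FLAG peaks were up to 41 nt apart.

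Most members were not close to a peak of the other tag, although most lay in a gene that had one. A FLAG input peak was found elsewhere in the gene of 1608 V5-only loci (59.8%, interval 57.9% to 61.6%), and a V5 input peak elsewhere in the gene of 1557 FLAG-only loci (60.9%, interval 59.0% to 62.7%). The difference was −1.07 percentage points (interval −3.71 to 1.58), and it turned to 5.95 points when only members of a log2 of at least 4 were kept. With peaks of a log2 of at least 4 in all lists, the shares themselves fell to 35.4% and 36.4%, so that most members then lay in genes without the other tag. Within 50 nt on the genome, a peak of the other tag was found for 3.5% of V5-only and 4.07% of FLAG-only loci. It was 51 to 200 nt away for 8.07% and 8.44%, beyond 200 and up to 1000 nt away for 16.1% and 13.7%, and farther than 1000 nt for 72.3% and 73.8%. These distances include introns.

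V5-only loci fell into 1802 genes and FLAG-only loci into 1683 genes, and 614 genes held loci of both kinds. Of the 1802 genes, 842 had no FLAG input peak at all and held 1078 V5-only loci. Of the 1683 genes, 781 had no V5 input peak and held 1000 FLAG-only loci. For scale, 3514 protein-coding genes held a locus of any kind, and 1558 of them a locus with both tags. Of the 3514, 823 held V5-only loci and no FLAG input peak, and 758 held FLAG-only loci and no V5 input peak. Single loci were the rule, in 1269 and 1134 genes. Only 49 of the 842 genes and 33 of the 781 genes held 3 or more loci of their tag.

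Peaks over the IP from empty vector cells were not used by the rule, although those lists rest on the same Cas9 IP libraries. A V5 empty vector peak was held by 27.4% of all loci and a FLAG empty vector peak by 18.1%. Members held fewer than loci with both tags, and mostly of their own tag. A V5 empty vector peak was held by 480 of 2689 V5-only loci (17.9%, interval 16.4% to 19.3%), and a FLAG empty vector peak by 390 of 2558 FLAG-only loci (15.2%, interval 13.9% to 16.7%). In loci with both tags the shares were 47.4% for V5 (interval 45.5% to 49.3%) and 36.8% for FLAG (interval 35.0% to 38.6%). The difference of 2.60 points between V5-only and FLAG-only loci (interval 0.591 to 4.61) reversed to −0.536 points with 1 locus per gene, to −1.01 points with peaks of a −log10 p of at least 5, and to −11.1 points among members of a log2 of at least 4. In that last set the shares were 19.8% of 384 V5-only and 30.9% of 470 FLAG-only loci.

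A peak of the tag that had none over input was rare in the empty vector lists. It was present at 47 V5-only loci, over the empty vector FLAG IP (1.75%, interval 1.32% to 2.32%), and at 120 FLAG-only loci, over the empty vector V5 IP (4.69%, interval 3.94% to 5.58%). The difference was −2.94 points (interval −3.93 to −2.00). It shrank to −1.60 points in genes without the other tag, to −1.18 points with peaks of a −log10 p of at least 5 and to −0.778 points among members of a log2 of at least 4. The V5 empty vector list was the longer, with 3005 peaks against 1964. In all, 2179 V5-only loci and 2079 FLAG-only loci held no empty vector peak of either tag.

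**Figure D1:**
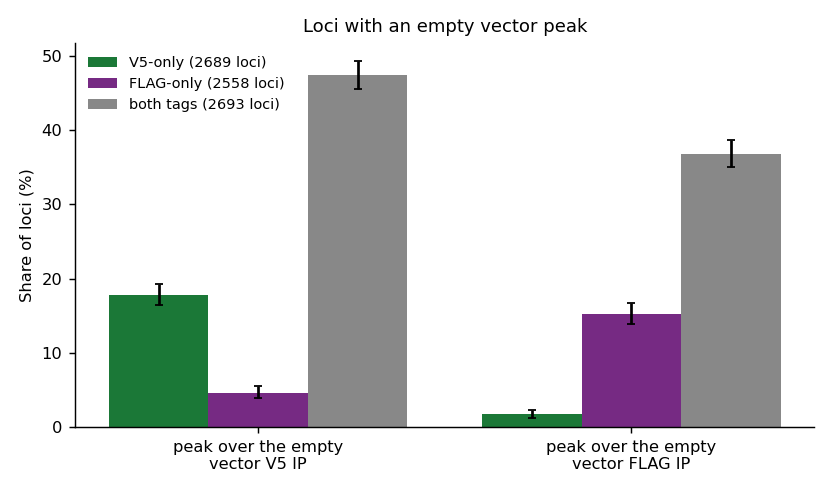
Share of loci (%) with a peak over the empty vector V5 IP (left) and over the empty vector FLAG IP (right), for V5-only loci, FLAG-only loci and loci with both tags. Bars give the share and error bars its 95% Wilson interval; both kinds of member stay under 20% in their own tag, against 47.4% and 36.8% of the loci with both tags.

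In each group, the 5 loci most enriched over the empty vector IP of the tag they lacked over input were named by that value. Their log2 values there were therefore high by choice, and the controls of the 2 values differ. Over all members with such a peak, the median there was 3.26 in FLAG (47 V5-only loci) and 3.43 in V5 (120 FLAG-only loci). Among FLAG-only loci, CIZ1 (a zinc finger protein of DNA replication) had a log2 of 3.59 over input in FLAG and of 4.94 over empty vector in V5. ABCA3 (a lipid transporter) had 4.29 and 4.67, TRRAP (a scaffold of histone acetyltransferase complexes) 3.83 and 4.44, SCARF2 (a scavenger receptor) 3.25 and 4.29, and KHDRBS1 (the RNA-binding protein Sam68) 3.36 and 4.19. All 5 lay in coding sequence. Among V5-only loci, the 3′ UTR of CMBL (a carboxymethylenebutenolidase homolog) had a log2 of 3.17 over input in V5 and of 4.57 over empty vector in FLAG, and it also had 4.24 over empty vector in V5. FOXO3B, HSPG2, XPO7 and HDAC5 followed with 4.02, 4.02, 4.00 and 3.93 over empty vector in FLAG, in the 3′ UTR for FOXO3B and XPO7 and in CDS for the other two.

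Both kinds of member lay mainly in coding sequence, at shares near that of all loci. By the midpoint of the locus on GENCODE 44 canonical transcripts, 1477 V5-only loci (54.9%, interval 53% to 56.8%) and 1361 FLAG-only loci (53.2%, interval 51.3% to 55.1%) were in CDS. CDS held 52.7% of all loci and 45.0% of loci with both tags. The 3′ UTR held 931 V5-only loci (34.6%, interval 32.8% to 36.4%), 978 FLAG-only loci (38.2%, interval 36.4% to 40.1%), 42.3% of loci with both tags and 37.0% of all loci. The 5′ UTR held 214 V5-only loci (7.96%), 154 FLAG-only loci (6.02%), 9.21% of loci with both tags and 7.56% of all loci. Introns of coding genes were rare, with 8 V5-only and 17 FLAG-only loci. With peaks of a log2 of at least 4 in all lists the shares in CDS fell to 45.6% and 43.9% and those in 3′ UTRs were 40.9% and 45.8%, so that the 3′ UTR and not CDS held the most FLAG-only loci.

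V5-only loci were thus less often in 3′ UTRs than FLAG-only loci, by −3.61 points (interval −6.21 to −1.01), and more often in 5′ UTRs, by 1.94 points (interval 0.557 to 3.32), while the difference in CDS was 1.72 points (interval −0.975 to 4.42). The contrast was wider where the gene had no peak of the other tag: there the 3′ UTR held 29.0% of V5-only and 39.4% of FLAG-only loci, a difference of −10.4 points (interval −14.4 to −6.33), and CDS 55.8% and 47.5%, a difference of 8.33 points (interval 4.03 to 12.6). The median position along the CDS was 47.2% of its length for V5-only and 49.7% for FLAG-only loci, with lower quartiles of 18.3% and 26.3%. Along the 3′ UTR the medians were 36.2% and 36.5%.

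**Figure D2:**
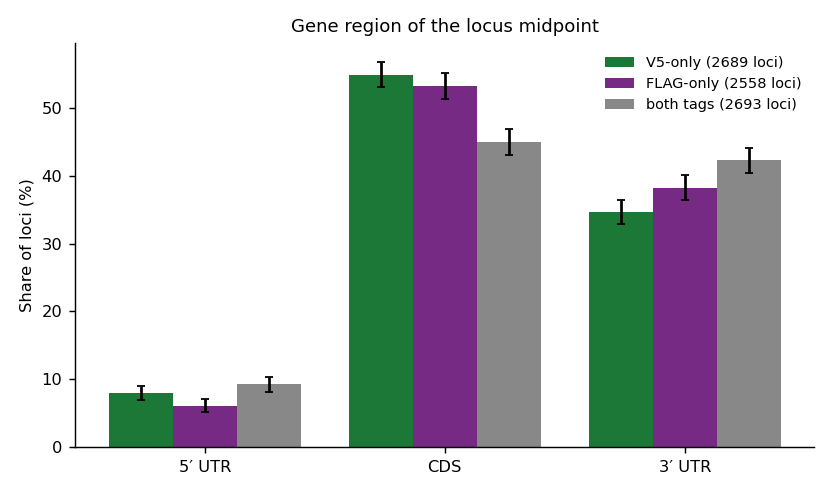
Share of loci (%) whose midpoint fell in each region of a canonical transcript (5′ UTR, coding sequence, 3′ UTR), for V5-only loci, FLAG-only loci and loci with both tags. Bars give the share and error bars its 95% Wilson interval. CDS holds 54.9% and 53.2% of the members and 45.0% of the loci with both tags, beside 52.7% of all loci (not drawn).

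The own-tag empty vector peaks were distributed differently over the regions in the 2 groups. Among V5-only loci, such a peak was held by 39 of 214 in 5′ UTRs (18.2%, interval 13.6% to 23.9%), 318 of 1477 in CDS (21.5%, interval 19.5% to 23.7%) and 115 of 931 in 3′ UTRs (12.4%, interval 10.4% to 14.6%). Among FLAG-only loci it was held by 6 of 154 in 5′ UTRs (3.90%, interval 1.80% to 8.24%), 208 of 1361 in CDS (15.3%, interval 13.5% to 17.3%) and 164 of 978 in 3′ UTRs (16.8%, interval 14.6% to 19.2%). The lowest share was in 3′ UTRs for V5-only and in 5′ UTRs for FLAG-only loci. Over all regions, 27.4% of all loci held a V5 and 18.1% a FLAG empty vector peak. Shares by region were not computed for all loci or for loci with both tags. Whether the contrast is particular to the members was therefore not tested.

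The genes that held the loci differed somewhat in length. The median canonical mRNA of genes with V5-only loci and no FLAG input peak was 3557 nt (interval of the median 3303 to 3743, n = 823), and that of genes with FLAG-only loci and no V5 input peak was 4010 nt (interval 3820 to 4235, n = 758). Genes with a locus of both tags had a median of 3838 nt.

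In base composition, V5-only loci were richer in G and C. Their median GC content was 60.7% (interval of the median 60.3% to 61.2%, quartiles 53.8% and 67.0%), against 58.2% (interval 57.8% to 58.7%, quartiles 51.4% and 64.6%) in FLAG-only loci and 59.4% in loci with both tags. The difference of 2.53 points grew to 3.40 with peaks of a −log10 p of at least 5, to 3.44 in genes without the other tag and to 4.57 among members of a log2 of at least 4. Within CDS alone the medians were 61.1% (interval of the median 60.5% to 61.8%) and 58.1% (interval 57.6% to 59.0%), with 59.1% in loci with both tags. In 3′ UTRs they were 58.1% and 56.7%, and in 5′ UTRs 71.8% and 72.5%, where the order was reversed and the intervals overlapped. The median adenine share of CDS loci was 17.8% in V5-only and 20.7% in FLAG-only loci.

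**Figure D3:**
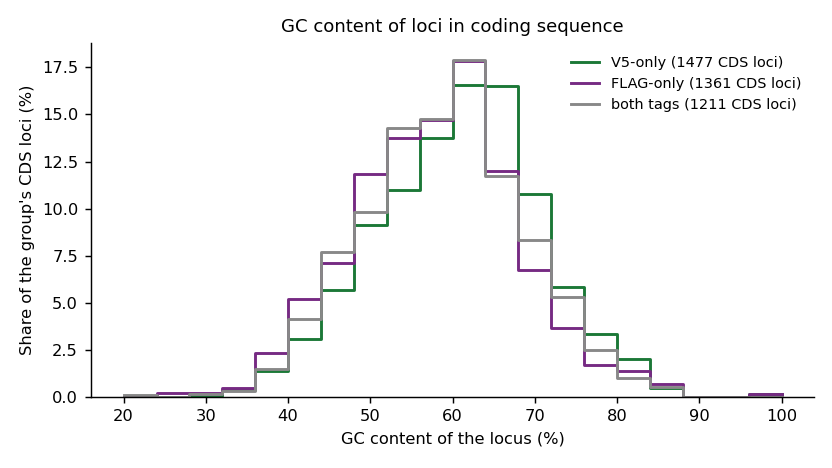
Distribution of GC content (%) over loci in coding sequence, as the share (%) of each group's CDS loci in bins of 4 percentage points, for V5-only loci, FLAG-only loci and loci with both tags. The V5-only curve lies to the right, with a median of 61.1% against 58.1% for FLAG-only loci.

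A GU-loop:5nt-stem was called in 1199 V5-only loci (44.6%, interval 42.7% to 46.5%) and 1037 FLAG-only loci (40.5%, interval 38.7% to 42.5%), against 59.3% of loci with both tags and 47.7% of all loci. The share rose with length. V5-only loci were longer than FLAG-only loci, and loci with both tags, which join a peak of each tag, were longer still. In loci of 50 to 100 nt it was 43.5% and 41.6%, a difference of 1.90 points (interval −1.85 to 5.65), and 48.4% in loci with both tags. In loci shorter than 50 nt it was 18.0% in V5-only and 17.1% in FLAG-only loci, and in loci longer than 100 nt it was 64.2% of 793 V5-only and 59.4% of 667 FLAG-only loci. The difference over all lengths was 4.05 points (interval 1.37 to 6.72). A call is a prediction from the genomic sequence with 50 nt on either side, and introns in these flanks were not removed. Among the most enriched loci shown above, RPL15 held 3 calls, of which some overlap. MED27 held 2 calls and FAR2 1 that lay outside the printed bases, and RRBP1, PITX1, ARAP1 and RPS28P7 held none.

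In 5 of 13 gene lists the interval of the difference V5-only minus FLAG-only lay above 0. These were ribosomal proteins, translation factors, chaperones, histones and mitochondrial ribosomal proteins. By symbol, cytoplasmic ribosomal protein genes held 50 V5-only loci in 28 genes (1.86%, interval 1.41% to 2.44%) and 10 FLAG-only loci in 8 genes (0.391%, interval 0.212% to 0.718%), with 1.95% of all loci and 3.19% of the loci with both tags. The difference was 1.47 points (interval 0.915 to 2.08), and 0.0805 points when peaks of a log2 under 4 were dropped from all lists. Translation factors (EIF and EEF symbols) held 36 and 14 loci, with 1.34% and 0.547% of each group, beside 1.13% of all loci and 1.19% of the loci with both tags, a difference of 0.791 points (interval 0.269 to 1.35). Heat shock proteins and chaperones held 47 and 15, with 1.75% and 0.586%, beside 1.12% of all loci and 0.928% of those with both tags, a difference of 1.16 points (interval 0.588 to 1.78). That list was drawn by symbol and took in HSPG2, a basement membrane proteoglycan that is no chaperone, without which it held 45 and 14 loci. Histone genes held 23 and 7 loci (0.855% and 0.274%, beside 0.623% of all loci and 0.817% of loci with both tags), a difference of 0.582 points (interval 0.175 to 1.03). Mitochondrial ribosomal proteins held 16 and 6 (0.595% and 0.235%, beside 0.459% of all loci and 0.631% of loci with both tags), a difference of 0.360 points (interval 0.00199 to 0.751). With peaks of a log2 of at least 4 in all lists, the difference was 0.621 points for chaperones (interval −0.312 to 1.66) and 0.979 points for translation factors (interval −0.0148 to 2.11), and only that of histone genes, 0.959 points (interval 0.225 to 1.92), kept an interval without 0.

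In the other 8 lists the interval of the difference included 0. The intervals were not adjusted for the number of lists. Solute carriers held 48 V5-only and 54 FLAG-only loci (1.79% and 2.11%, beside 2.12% of all loci), and ZNF genes 28 and 36 (1.04% and 1.41%, beside 1.13%). Proteasome and ubiquitin genes held 30 and 36 (1.12% and 1.41%, beside 1.38%), and cell cycle and replication genes 36 and 34 (1.34% and 1.33%, beside 1.55%). Splicing factors and helicases held 21 and 12 (0.781% and 0.469%, beside 0.918% of all loci), and tubulins and kinesins 17 and 9 (0.632% and 0.352%, beside 0.423%). Aminoacyl-tRNA synthetases held 15 and 12 (0.558% and 0.469%, beside 0.647%), and p53 target genes 29 and 24 (1.08% and 0.938%, beside 1.29%). For the synthetases the difference of 0.0887 points turned to −0.799 points (interval −1.64 to −0.185) with peaks of a log2 of at least 4 in all lists, where 0 V5-only and 7 FLAG-only loci were left.

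**Figure D4:**
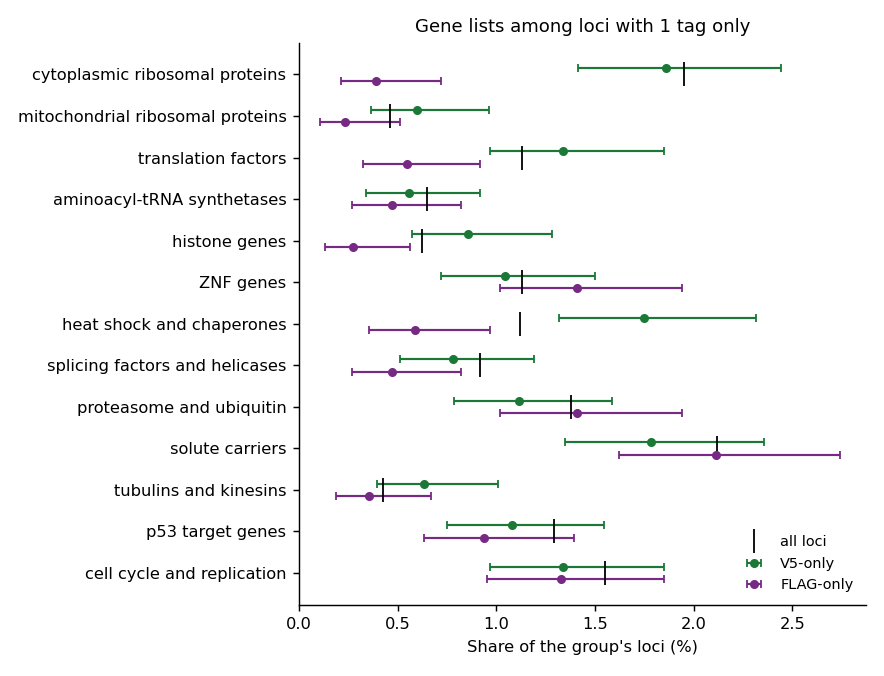
Share (%) of V5-only and of FLAG-only loci that lay in genes of 13 lists, with 95% Wilson intervals, beside the share of all 8501 loci (vertical marks). The intervals of the groups lie apart for cytoplasmic ribosomal proteins, translation factors, histone genes and heat shock proteins and chaperones.

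In ribosomal protein genes, RPL4 held 6 V5-only loci, RPL15 5, RPL10A 4 and RPS7 3. RPL4, RPL10A and RPS7 had no locus with a FLAG input peak. Of the 50 loci, 28 also held a V5 empty vector peak (56.0%, interval 42.3% to 68.8%), and 35 lay in CDS, whereas 17.9% of all V5-only loci held such a peak. The 10 FLAG-only loci included 2 each in RPL28 and RPL31 and 1 in RPL15 at a log2 of 3.00, and 1 of them held a FLAG empty vector peak. Ribosomal protein genes and histone genes have near-identical copies and pseudogenes in the genome, so the gene to which such a locus belongs is uncertain.

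The highest ribosomal protein loci were V5-only. The RPL15 locus shown above had a log2 of 5.79 over input and of 4.62 over empty vector in V5, and lay 59 nt from the nearest FLAG peak. The RPL4 locus had 5.19 over input and 3.04 over empty vector. The highest FLAG-only locus of the list, in the 3′ UTR of RPL28, had 4.49 over input and 3.65 over empty vector in FLAG. The highest mitochondrial ribosomal loci were MRPL10 (4.88) and MRPS15 (4.11) in V5, and MRPL30 (4.08) and MRPS18A (3.77) in FLAG.

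Chaperone members included HSPA8 with 7 V5-only loci, CCT7, a subunit of the TRiC chaperonin, with 5 V5-only and 3 FLAG-only loci, DNAJB1 with 5 V5-only, and HSP90AA1 and HSPH1 with 4 V5-only each. HSPA8, HSP90AA1, DNAJB1 and HSPH1 held no FLAG-only locus, but DNAJB1 held 3 and HSPH1 2 loci with both tags. Of the 47 loci, 19 held a V5 empty vector peak (40.4%, interval 27.6% to 54.7%), against 17.9% of all V5-only loci and 27.4% of all loci. The share among all loci of the chaperone genes was not computed. The highest values were 4.23 in DNAJA1 and 4.20 in the 3′ UTR of HSP90AA1 among V5-only loci, and 4.47 in the 3′ UTR of DNAJC3 among FLAG-only loci.

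Translation factor members included EEF1A1, EEF2 and EIF5 with 4 V5-only loci each, and EIF3A and EIF3I, subunits of the initiation factor eIF3, with 3 each. Loci with both tags numbered 10 in EEF2, 2 in EEF1A1 and 1 each in EIF3A and EIF3I, and EEF1A1 and EIF5 each held 1 FLAG-only locus. Of the 36 loci, 16 held a V5 empty vector peak (44.4%, interval 29.5% to 60.4%), again against 17.9% of V5-only loci and 27.4% of all loci. The share among all loci of the translation factor genes was not computed. FLAG-only loci were found 3 times in EEFSEC, the selenocysteine elongation factor, and 2 times each in EIF1, EIF2D and EIF4EBP2. The list was drawn by symbol and took in EIF2AK1, EIF4EBP1 and EIF4EBP2, which are not translation factors themselves. They held 1, 2 and 1 of the V5-only loci. Their highest values were 3.99 in the 5′ UTR of EIF1 and 3.83 in EEFSEC, compared with 4.22 in the 5′ UTR of EIF5 and 4.12 in EEF1A2 for V5-only loci.

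Among histone genes, the highest V5-only loci lay in the 5′ UTR of H3-3B (4.53) and in H3C1 (4.42), and the highest FLAG-only loci in H3C13 (3.85) and H3C6 (3.71). Among splicing factors and helicases they lay in the 5′ UTR of DDX17 (4.84) and in SF3A1 (3.84) for V5, and in DHX8 (4.56) and the 3′ UTR of DHX38 (4.24) for FLAG. Among ZNF genes they lay in the 5′ UTR of ZNF543 (4.67) and in ZNF236 (4.54) for V5, and in ZNF395 (4.79) and ZNF213 (4.75) for FLAG. Among the solute carriers, SLC7A2 (4.54) and SLC35B4 (4.50) led for V5, and SLC30A1 (4.87) and SLC46A1 (4.61) for FLAG.

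In the remaining lists, UBE3C (4.46) and USP30 (4.22) led V5-only loci of proteasome and ubiquitin genes, and USP7 (4.72) and USP44 (4.42) FLAG-only loci. KIF3B (4.11) and KIF1B (3.89) led V5-only loci of tubulins and kinesins, and KIF1A (4.23) and KIF1C (3.63) FLAG-only loci. CARS1 (3.81) and IARS2 (3.70) led V5-only loci of aminoacyl-tRNA synthetases, and TARS2 (5.05) and WARS1 (4.20) FLAG-only loci. E2F6 (5.01) and MCM3AP (3.91) led V5-only loci of cell cycle and replication genes, and CDKN1A (5.32) and CCNF (4.99) FLAG-only loci. MCM3AP was taken in by its symbol, and its locus lay in an exon outside the canonical transcript.

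The remaining most enriched V5-only loci by gene lay in the pseudogene RPL8P3 (a log2 of 5.33 over input), the 3′ UTR of ATP6V1E1 (5.25; a subunit of the vacuolar proton pump), the CDS of DDB1 (5.23; the adaptor of the CUL4 ubiquitin ligase), the 5′ UTR of GLUL (5.21; glutamine synthetase) and the 3′ UTR of C8orf33 (5.21). CABLES1 had 5.54, RRBP1 5.46, PITX1 5.36 and LINC01344 5.33. Of these 10 loci, RPL15, RPL8P3 and GLUL also had a V5 empty vector peak, and none had a FLAG empty vector peak. The ATP6V1E1 locus lay 23 nt from a FLAG peak, whereas the nearest FLAG peak to that of DDB1 was 13442 nt away.

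Among FLAG-only loci, SIN3B had a log2 of 6.51, MED27 6.24, ARAP1 5.83, RPS28P7 5.44 and FAR2 5.43. EXT2 (5.36; a heparan sulfate polymerase) followed in CDS, and CDKN1A (5.32; the cyclin-dependent kinase inhibitor p21), ENDOV (5.31; an endonuclease of inosine-containing RNA) and SRGAP1 (5.31) in 3′ UTRs, with CACNA2D4 (5.31; a calcium channel subunit) in an intron. Of these 10, MED27, RPS28P7, FAR2, EXT2, CDKN1A, ENDOV and SRGAP1 had a FLAG empty vector peak, and none had a V5 empty vector peak. The 3 without one, SIN3B, ARAP1 and CACNA2D4, were 21, 21 and 27 nt long.

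Some genes carried many members of 1 kind, counted on the genome, where an intron can split 1 site of the mRNA into several loci. RPL4 held 6 V5-only loci, from a log2 of 3.12 to 5.19, and no locus of another kind. Of these, 5 lay in CDS and 1 in the 5′ UTR, and 4 held a V5 empty vector peak, from 3.04 to 3.72. HSPA8 held 7 V5-only loci from 3.04 to 4.18, of which 6 lay in CDS and 5 held a V5 empty vector peak. No FLAG input peak was found in either gene.

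ASS1 (argininosuccinate synthase of the urea cycle) held 7 V5-only loci, the highest at 4.15, and 1 of them held a V5 empty vector peak, at 4.22. KLHL21 (a substrate adaptor of a CUL3 ubiquitin ligase) held 6, the highest at 4.00, none of which held an empty vector peak. IMPDH2 (the rate-limiting enzyme of guanine nucleotide synthesis) held 5, from 3.48 to 3.93, of which 3 held a V5 empty vector peak. None of ASS1, KLHL21 and IMPDH2 had a FLAG input peak.

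Other genes held V5-only loci beside loci with FLAG peaks. CBX6 (a Polycomb chromobox protein) held 8 V5-only loci, from 3.00 to 3.79, and 6 loci with both tags. ATP5F1A (the alpha subunit of the mitochondrial ATP synthase) held 7 V5-only loci, 1 FLAG-only locus and 4 with both tags, and DDB1 held 7, 4 and 2.

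NSD1 held the most FLAG-only loci of any gene, 12, from a log2 of 3.03 to 4.24. Of these, 7 lay in CDS, 3 in the 3′ UTR and 2 in the 5′ UTR, and none held an empty vector peak. The same mRNA held 3 V5-only loci, from 3.06 to 3.88, of which 2 held a V5 empty vector peak, and 4 loci with both tags. FLCN (folliculin, a regulator of mTORC1 at the lysosome) held 11 FLAG-only loci, from 3.11 to 4.80, and 1 V5-only locus, with none of both tags. INPP5D held 8 FLAG-only loci, the highest at 5.13 in CDS and 4.73 in the 3′ UTR, and 2 loci with both tags.

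HTT (huntingtin) held 7 FLAG-only loci, 2 V5-only loci and 4 with both tags, and CCNF (cyclin F, of a ubiquitin ligase) held 7, 1 and 2. Of the genes without any V5 input peak, FBH1 (a DNA helicase) held 6 FLAG-only loci from 3.01 to 4.53. ARNT2 (a transcription factor of the PAS family) held 5 up to 4.87, UNK (an RNA-binding zinc finger protein) 5 up to 4.13, SCRIB (a cell polarity protein) 5 up to 3.84 and ABR 4 up to 4.42. In SCRIB, 2 of these loci had the same log2 of 3.03 and lay on either side of an intron, as did 2 ABR loci of 3.83.

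The 2 sestrin genes, both known p53 targets, held mostly opposite kinds. SESN2 held 8 V5-only loci, all 8 with a V5 empty vector peak, from 3.32 to 4.40 over input and from 3.26 to 5.02 over empty vector. They lay in the 5′ UTR (2), CDS (5) and the 3′ UTR (1), while 5 of the 6 SESN2 loci with both tags and its only FLAG-only locus, at 4.28, lay in the 3′ UTR. SESN1 held 6 FLAG-only loci, from 3.08 to 4.56, of which 4 held a FLAG empty vector peak, and 1 V5-only locus at 4.02 in the 3′ UTR. It held 2 loci with both tags. This pair was set side by side after its values were seen.

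**Figure D5:**
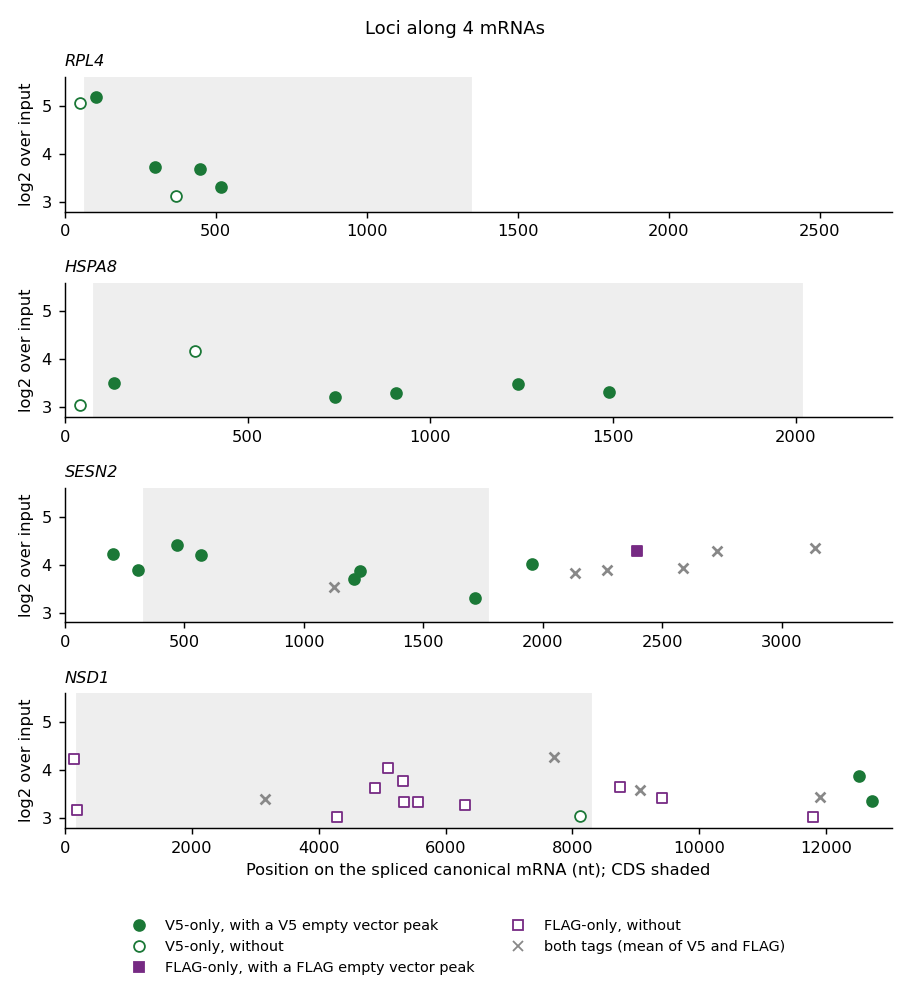
Position (nt) on the spliced canonical mRNA against log2 enrichment over size-matched input for each locus with an input peak in RPL4, HSPA8, SESN2 and NSD1, with the CDS shaded. Circles are V5-only and squares FLAG-only loci, filled where the same tag has an empty vector peak, and crosses are the mean of V5 and FLAG at loci with both tags; RPL4 and HSPA8 show V5-only loci alone, and none of the 12 FLAG-only loci of NSD1 is filled.

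Over the whole p53 target list, 14 of 29 V5-only loci held a V5 empty vector peak (48.3%, interval 31.4% to 65.6%) and 12 of 24 FLAG-only loci a FLAG empty vector peak (50.0%, interval 31.4% to 68.6%), against 17.9% and 15.2% of all members of each kind. Among all loci, 27.4% held a V5 and 18.1% a FLAG empty vector peak, and the shares among all p53 target loci were not computed. The SESN2 loci made up 8 of the 14 and those of SESN1 4 of the 12. At loci with both tags, a V5 empty vector peak was held by 6 of 6 in SESN2 and a FLAG one by 1 of 2 in SESN1. MDM2, the ubiquitin ligase of p53, held 6 V5-only loci from 3.04 to 3.28 and no FLAG-only locus, beside 4 loci with both tags.

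CDIP1, ATF3, CDKN1A and the control genes ACTB and GAPDH, which the study measured by qPCR, were looked up by name with AEN, TRIM28, H2AC11, MACROH2A2 and ZNF496. CDIP1 held 4 loci and H2AC11 2, all with both tags. ATF3 held 6 loci with both tags and 1 V5-only locus at 4.17, and AEN held 9 with both tags and 1 V5-only locus at 4.48. TRIM28 held 8 with both tags and 3 V5-only loci at 3.66, 3.78 and 3.78, and all 3 had a V5 empty vector peak. CDKN1A held 8 with both tags, 2 FLAG-only loci at 4.65 and 5.32 in the 3′ UTR and 1 V5-only locus at 3.03 in CDS, and each of these 3 had an empty vector peak of its own tag. MACROH2A2 and ZNF496 each held 1 FLAG-only locus, at 3.34 and 3.31, next to 1 and 2 loci with both tags. GAPDH held 1 FLAG-only locus in its 5′ UTR at 3.72 with no empty vector peak, and no other locus. No locus was found in ACTB.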

How the data were processed

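Per the labels and the study's methods, the authors aligned reads to hg38 with their eCLIP pipeline (cutadapt 1.14, STAR 2.4.0i, UMI-tools 1.0.0 and SAMtools 1.6 are named in the submitters' processing notes) and merged 2 replicates per list by IDR. The authors deposited a log2 enrichment of IP over control per peak, as a geometric mean of the replicates, and the −log10 of its p-value, which has a ceiling of 400. Only peaks with both values of at least 3 are listed. How library size was scaled and how reads with several matches were treated is not given in the sources used here. The lists hold 6605 (V5, input), 6554 (FLAG, input), 3005 (V5, empty vector) and 1964 (FLAG, empty vector) peaks.

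Peaks were pooled and merged within 10 nt per strand. A locus took the highest log2 of its peaks in each list. Genes and regions came from canonical transcripts of GENCODE 44, at the locus midpoint. All coordinates are 1-based, hg38. Of the sequences of the 5 most enriched loci per group, 1 is not reported here. Pairing was computed with ViennaRNA 2.7.2 (RNAplfold, window 70, 50 nt flanks), and a GU-loop:5nt-stem needed a U pairing under 0.7 and 5 following bases over 0.5. Shares have 95% Wilson intervals and differences Newcombe intervals. No test over loci was made, since loci are not replicates, and arithmetic was tested on simulated data. The members, the 13 gene lists (drawn by symbol, the p53 targets by name) and the naming rule were chosen with earlier results of these data known. Named by the rule, per group, were the 10 most enriched loci (1 per gene), the 5 genes with most loci and the 5 with most among genes without the other tag, 10 genes set by name, the 2 highest genes per list and the 5 loci highest over the other tag's empty vector IP. Other named genes were chosen after their values were seen: LDHB, TOMM34 and JAM3 at the edge of the rule, MDM2, and list members named for their number of loci. Alternatives changed the merging distance, the log2 and p thresholds, the loci counted, the region rule and the folding.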

Additional observations from a re-analysis of the deposited data

How the results depend on the processing

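Of 83 alternative values for the 11 main comparisons, 63 kept their direction and size, 17 moved and 3 reversed. A change of sign was counted as a reversal only where the reported interval excluded 0. Counted without that condition, 4 of these differences and 12 of the others changed sign. With peaks of a log2 of at least 4 in all lists, 839 V5-only and 876 FLAG-only loci remained, the ribosomal protein difference was 0.0805 points and the mitochondrial ribosomal difference reversed to −0.084 points. Among members of a log2 of at least 4 in their own tag (384 V5-only and 470 FLAG-only loci), the differences V5-only minus FLAG-only were −11.1 points for an own-tag empty vector peak (reversed), −0.778 for an other-tag empty vector peak, 6.29 for CDS, −8.10 for 3′ UTR, 5.95 for the other tag in the same gene and 4.57 for median GC. With peaks of a −log10 p of at least 5 they were −1.01 for an own-tag empty vector peak (reversed), −1.18 for an other-tag one, −6.37 for 3′ UTR and 3.40 for GC. With 1 locus per gene the own-tag difference reversed to −0.536. In genes without the other tag the differences were −1.60 for an other-tag peak, 8.33 for CDS, −10.4 for 3′ UTR and 3.44 for GC. The cause of these changes was not tested. Among the other 562 values, 384 kept their size, 177 moved and 1 reversed. No paired analysis was possible because each list holds 1 value over both replicates, and for the same reason no replicate could be left out. The depth of the libraries is not known from these files, so a missing peak of a tag does not show that the RNA was not bound.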

Other observations

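Members outside protein-coding genes were few, 35 V5-only and 27 FLAG-only loci, and were looked at after their values were seen. Of the V5-only loci, 12 lay in 6 small nucleolar RNA host genes (SNHG), spliced noncoding transcripts whose introns carry small nucleolar RNAs, with a log2 of 3.10 to 4.34 over input. These were SNHG32 with 3, SNHG5, SNHG7, SNHG16 and SNHG29 with 2 each and SNHG6 with 1. FLAG-only loci held 1, in SNHG16 at 3.20. These SNHG counts were not set beside the share of such genes in all loci or in loci with both tags, and are a description only. Noncoding RNA exons of any kind held 1.15% of V5-only, 0.899% of FLAG-only and 1.11% of all loci. NORAD, a long noncoding RNA bound by Pumilio proteins, held 2 V5-only loci at 3.85 and 3.09. In each group, 9 loci lay in pseudogenes, which share sequence with their parent genes, so that their origin is uncertain.

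A few lay on small structured RNAs. FLAG-only loci covered VTRNA1-2, a vault RNA, at a log2 of 4.54, the mitochondrial cysteine tRNA gene MT-TC at 4.38 and 2 copies annotated as Y RNA at 3.46 and 3.33. V5-only loci covered RNVU1-1, a variant U1 small nuclear RNA, at 4.68 and RNU6-4P at 3.24. The VTRNA1-2 locus also had a log2 of 3.45 over empty vector in V5 and of 3.36 in FLAG. MicroRNA genes appeared in both groups, with MIR222 at 4.85 in FLAG, and MIR1229 at 4.58 and MIR92A1 at 3.90 in V5. The MIR222 and MIR92A1 loci had the following hg38 sequences, with GU-loop:5nt-stem calls in capitals.
MIR222, FLAG-only, chrX:45747034-45747094, minus strand: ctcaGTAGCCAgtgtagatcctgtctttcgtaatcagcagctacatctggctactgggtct
MIR92A1, V5-only, chr13:91351328-91351378, plus strand: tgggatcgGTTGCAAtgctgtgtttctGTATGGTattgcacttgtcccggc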
